A study of Mus musculus with 24 samples.

Results

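Resting macrophages of diabetic mice were compared with resting macrophages of control mice by their open chromatin. Both groups were grown from bone marrow of male C57Bl/6 mice and lysed without stimulation. Diabetes had been induced in 1 group with streptozotocin, a toxin taken up by the insulin-producing beta cells of the pancreas. The controls are labelled wild-type with no treatment, so an effect of the toxin itself and an effect of high blood glucose cannot be told apart here. No group carried a transgene or a gene deletion. Neither the ages of the mice nor their glucose levels nor the length of diabetes are stated in the labels. Each group held 6 libraries, chosen by their titles, so 12 of the 24 libraries of the series were used. The other 12 came from the other portion of each sample, after lipopolysaccharide (LPS, 100 ng/mL) and interferon gamma (IFNγ, 10 ng/mL), per the stimulation label. The treatment protocol names IL-1β and a culture of 6 h instead, so the stimulus and its duration are uncertain. Nuclei of 50000 cells went into each library. The labels do not say that every library came from a mouse of its own, so the p-values measure the spread between these libraries.

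Macrophages grown from bone marrow differentiate in culture, outside the animal. The comparison at rest asks whether cells from diabetic marrow carry open chromatin that differs from that of control cells before any inflammatory signal. In ATAC-seq the transposase Tn5 cuts and tags DNA that is not packed around nucleosomes, so promoters and enhancers in use give peaks of sequenced tags. Lineage factors such as PU.1, C/EBP and RUNX1 keep macrophage enhancers open at rest, and NF-κB, AP-1, IRF and STAT factors act on them after an inflammatory signal.

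Of the 32 regions that differed in the test described below, 7 overlapped the start site of a protein-coding gene. The 250 bases before the start of 3 of these genes are shown, read 5′ to 3′ along the gene's strand from RefSeq (GRCm38.p6, which has the chromosomes of mm10). Hsd11b1 is shown because its promoter gave the firmest difference of the 7, and P2ry13 and Tmem87b because they alone held one of 4 short motifs, which stands in capitals.

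Hsd11b1, chr1:193242361-193242610, minus strand: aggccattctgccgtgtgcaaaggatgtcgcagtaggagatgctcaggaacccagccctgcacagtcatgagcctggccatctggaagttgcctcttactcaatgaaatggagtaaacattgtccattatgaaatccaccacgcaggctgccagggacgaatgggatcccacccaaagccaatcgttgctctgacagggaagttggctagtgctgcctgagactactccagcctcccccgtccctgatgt
P2ry13, chr3:59210883-59211132, minus strand: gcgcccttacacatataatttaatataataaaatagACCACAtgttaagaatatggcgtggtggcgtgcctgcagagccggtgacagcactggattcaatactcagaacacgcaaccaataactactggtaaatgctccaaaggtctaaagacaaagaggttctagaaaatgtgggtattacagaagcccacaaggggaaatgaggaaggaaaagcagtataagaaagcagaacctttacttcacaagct
Tmem87b, chr2:128818053-128818302, plus strand: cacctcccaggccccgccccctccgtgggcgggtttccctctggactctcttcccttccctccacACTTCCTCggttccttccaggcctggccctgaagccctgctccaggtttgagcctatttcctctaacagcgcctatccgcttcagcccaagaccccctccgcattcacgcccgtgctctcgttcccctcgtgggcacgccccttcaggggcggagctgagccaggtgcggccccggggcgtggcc

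The letters searched on both strands were TGTGGT (RUNX), TGANTCA (AP-1), GAGGAAGT (PU.1) and CACGTG (E-box). The capitals mark RUNX letters on the minus strand of the P2ry13 sequence and PU.1 letters on the minus strand of the Tmem87b sequence, and no 2 motifs overlapped. RUNX letters were in 15% and PU.1 letters in 3.13% of 21262 windows that reach from 250 bases before to 50 bases after a start. The Hsd11b1 sequence held none of the letters. Over start-site regions in general, the median diabetic minus control difference of the fold percentile, defined below, was 0.993 points for the 1008 regions with RUNX letters and 1.04 points for the 6731 without.

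As wholes, the libraries of both groups did not differ beyond their spread in any of 6 values. Diabetic libraries held 55522 ± 4925 peaks and control libraries 55990 ± 3486 (SD, n = 6 each; two-sided exact permutation p = 0.859). Covered length was 19.68 ± 2.20 Mb in diabetic and 19.69 ± 1.48 Mb in control libraries, with an exact permutation p of 1 (n = 6 each). Median peak width (298.3 and 296.2 bp, exact p = 0.461), the share of peaks within 1 kb of a gene end (22.9% and 22.6%, exact p = 0.669), the median fold over regions common to the 12 libraries (8.76 and 8.93, exact p = 0.552) and the share of peaks in those regions (63.8% and 63.2%, exact p = 0.838) did not differ beyond their spread. After adjustment over these 6 values every p was 1, and with 924 label orders the smallest reachable p was 0.00216. Peak numbers ran from 49837 in diabetic replicate 5 to 61861 in diabetic replicate 2, so 1 group held both ends of the range.

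The label of the cells was set beside lineage markers, without the share of all protein-coding genes for comparison. A region counted for its nearest protein-coding gene within 50 kb, so these counts do not by themselves identify the cells. All 20 macrophage genes listed, among them Adgre1 (F4/80) and Csf1r, the receptor for the growth factor CSF1, had at least 1 nearest region with a peak in all 12 libraries. Such a region was found for 7 of 15 neutrophil genes, 8 of 14 T and NK cell genes, 2 of 8 B cell genes, 5 of 10 erythroid and megakaryocytic genes, 5 of 12 stromal and endothelial genes, 8 of 10 dendritic cell genes and 2 of 7 mast cell and basophil genes. Regions near neutrophil genes with a peak numbered 19 to 29 in the diabetic and 18 to 24 in the control libraries, so the groups overlapped. The ranges also overlapped for T and NK cells (22 to 29 and 18 to 28), B cells (7 to 12 and 10 to 14), erythroid and megakaryocytic cells (7 to 11 and 8 to 11), stromal and endothelial cells (24 to 30 and 24 to 33), dendritic cells (28 to 33 and 27 to 34) and mast cells and basophils (3 to 8 and 2 to 7). Whether small numbers of other cells take part in the results below was not tested beyond these ranges.

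Peaks of all libraries were merged into 80598 regions, of which 74287 had a peak in at least 1 resting library. A total of 32196 regions (43.3%) had a peak in all 12 resting libraries, with a median width of 634 bp. Of these common regions, 7739 overlapped the start site of a protein-coding gene, 13443 lay elsewhere in a gene body, 7770 lay within 50 kb of one and 3244 had no such gene within 50 kb. The fold of a peak, its enrichment over local background as the authors deposited it, was turned into a percentile from 0 to 100 within each library over the common regions. Spearman correlations of these percentiles between libraries, across regions, had a median of 0.812 for the 36 diabetic and control pairs, 0.815 for the 15 control pairs and 0.823 for the 15 diabetic pairs. The first principal component of the percentiles held 11.6% of the variance and mixed the groups. The second held 11.2%, with the 6 control libraries on its positive and the 6 diabetic libraries on its negative side. This is a description of 12 libraries, and a preparation day or sequencing lane that moved with phenotype was not tested, since the labels name none.

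**Figure D1:**
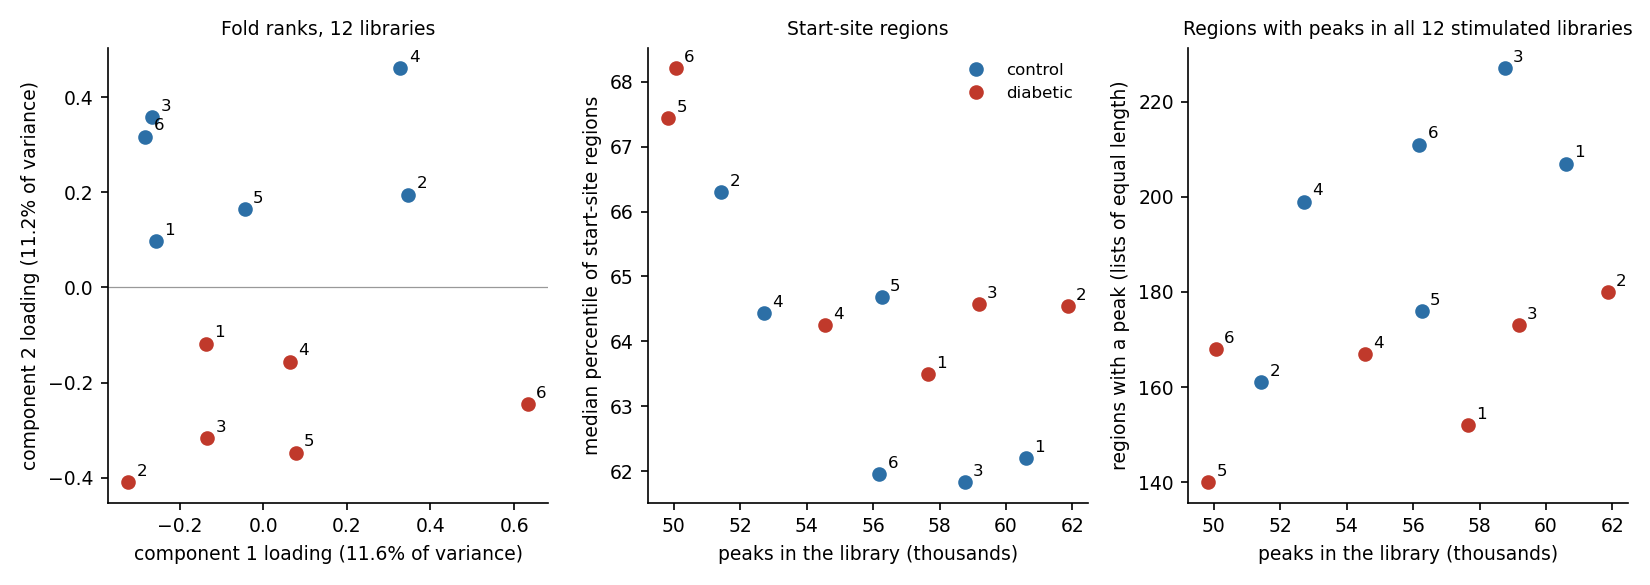
Each point is 1 resting library, numbered by its replicate, with control in blue and diabetic in red. Left, loadings on the first and second principal components of the fold percentiles, where the groups separate along the second (11.2% of variance). Middle, median percentile of start-site regions against the number of peaks. Right, number of regions of the stimulated state with a peak at rest, against the number of peaks in the full list. For the right panel, resting lists were cut to 49837 peaks and stimulated lists to at most that number.

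No region passed when the fold percentiles were compared between the groups with limma (Benjamini-Hochberg over 32196 regions, threshold 0.05; 0% called). The smallest adjusted p was 0.191. By unadjusted p under 0.05 there were 2287 regions, which is 7.1% of those tested, with 1086 (3.37%) higher and 1201 (3.73%) lower in diabetic macrophages. Each 95% interval reached a median of 14.1 percentile points to either side of its difference, with the 10th to 90th percentile of this reach at 6.06 to 19.7 points. These intervals are not adjusted for the number of regions, and differences well above their reach also missed the adjusted threshold, as the next values show.

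The leading regions by fold percentile are given as not passing. The smallest p belonged to a region within Clic4, which encodes a chloride intracellular channel protein (chromosome 4, 135247054 to 135247642). Its percentile was 57.5, 36.9, 56.7, 34.6, 41.4 and 37.5 in diabetic replicates 1 to 6 and 13.9, 2.2, 3.4, 6.8, 4.9 and 14.8 in control replicates 1 to 6. Every diabetic library was above every control library (difference 36.4 ± 5.71 points (SE), limma adjusted p = 0.191). Over all common regions, the groups stood apart without overlap in this direction in 50 regions (0.155%) and in the other direction in 65 (0.202%). A region within Naip2, a sensor of bacterial secretion systems that feeds the NLRC4 inflammasome, had a percentile of 85.2 ± 4.47 in diabetic and 61.2 ± 7.79 in control libraries (SD, n = 6 each; limma adjusted p = 0.318). The other regions leading in the diabetic direction lay at Acer3, Abhd3, Acoxl, Nploc4, Zfp217 and Chrm3, 37906 bp from Armc3 and 34335 bp from Psmg1. Their differences were 21.1 to 39.2 points.

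In the control direction, the smallest p was at a region 47624 bp from Foxl1 (chromosome 8, 121178072 to 121178463), and it lies within the lncRNA gene Gm42046. Its percentile was 4.2, 7.0, 11.2, 10.5, 6.2 and 18.4 in the diabetic and 46.4, 30.5, 40.7, 40.1, 31.5 and 32.0 in the control libraries. The groups did not overlap, and the difference of -27.3 ± 4.81 points (SE) had a limma adjusted p of 0.307. The widest difference of the leading 20 was -42.7 ± 8.65 points (SE), 2076 bp from Tada3, which encodes a subunit of histone acetyltransferase complexes (limma adjusted p = 0.318). Its values overlapped, with 41.1 in diabetic replicate 4 and 39.1 in control replicate 5. The remaining regions of this direction lay at Fhit, Amotl2, Sgce, Ccdc141, Pmepa1 and Arhgap31, 23065 bp from Mex3b and 19368 bp from Cpb1. Their differences ran from -12.0 to -35.5 points.

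Presence and absence of peaks gave no call either, by a test that could not have called single regions. Of 8788 regions whose number of peaks could reach an unadjusted p under 0.05, none passed Fisher's exact test after adjustment (0% called, smallest adjusted p = 0.972), and 137 (1.56%) had an unadjusted p under 0.05. In 58 of these (0.66%) more diabetic and in 79 (0.899%) more control libraries had the peak. The smallest p that Fisher's exact test can give here is 0.00216, for a peak in all of 1 group and none of the other. A small number of such regions cannot pass adjustment over 8788 regions, so the lack of calls does not show that presence was alike. Peaks in 6 of 6 diabetic and 0 of 6 control libraries were found in 3 regions, 10992 bp from Sp7 (chromosome 15, 102377825 to 102378229), within Spata13 (chromosome 14, 60744800 to 60745104) and within Fbxo28 (chromosome 1, 182333965 to 182334364). The reverse was found in 4 regions, 18485 bp from the adducin gene Add3, within Fgd6, 868 bp from Zfp362, and at a chromosome 15 region with no protein-coding gene within 50 kb (36346124 to 36346426). Their peaks were small, with 6 to 17 tags at the summit where a peak was called. The tags of the libraries without a peak are not known. Peaks in 5 diabetic and 0 control libraries were found in 29 regions and the reverse in 32. The strongest peaks among these lay within Extl3 and at chromosome 2 (124764118 to 124764439) in the diabetic direction and within Plekha8 in the control direction.

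A second measure was used after the fold percentile had given no call. The deposited fold and p-value together fix the whole number of tags at a peak's summit and the local background, because the fold is the tags plus 1 over the background plus 1. Tags at the summit keep the size of a peak that a percentile flattens among the strongest regions. Unlike the fold, they are not set against the local background, so the measures can differ for weaker regions too. Their library medians over the common regions were 20 to 27 tags, with means of 23.5 in diabetic and 23.8 in control libraries (exact permutation p = 0.900, n = 6 each). Each library's log2(tags + 0.5) was centred on its median and compared with limma.

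By summit tags, 32 of the 32196 regions (0.0994%) passed at an adjusted p under 0.05, 15 (0.0466%) higher and 17 (0.0528%) lower in diabetic macrophages. Their differences ran from 1.32-fold to 2.00-fold. By unadjusted p under 0.05 there were 3654 regions (11.3%), 1947 (6.05%) higher and 1707 (5.3%) lower. All 32 had the same direction by fold percentile, where 30 had an unadjusted p under 0.05, and both measures come from the same peaks. The exceptions lay within Sla and Map3k5, with limma unadjusted p of 0.135 and 0.0746 by fold percentile. In 22 of the 32 the centred tags of the groups did not overlap, as was the case for 99 regions (0.307%) higher and 103 (0.32%) lower in diabetic macrophages among all common regions. The 32 lay at the start site of a gene in 7 cases, elsewhere in a gene body in 15, within 50 kb of one in 7 and beyond that in 3.

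This count depended on the libraries and on the scale. It was 11 without control replicate 3, 19 without control replicate 4, 18 without control replicate 6, 13 without diabetic replicate 2, 18 without diabetic replicate 3, 49 without diabetic replicate 4, 10 without diabetic replicate 5 and 69 without diabetic replicate 6. It was 4 with percentile ranks of the tags. It was 0 when all 24 libraries, taken as independent, shared 1 estimate of the spread, where 22 of the 32 could be measured. A total of 6 regions passed in each of the 12 fits that left out 1 library, and these are described first.

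**Figure D2:**
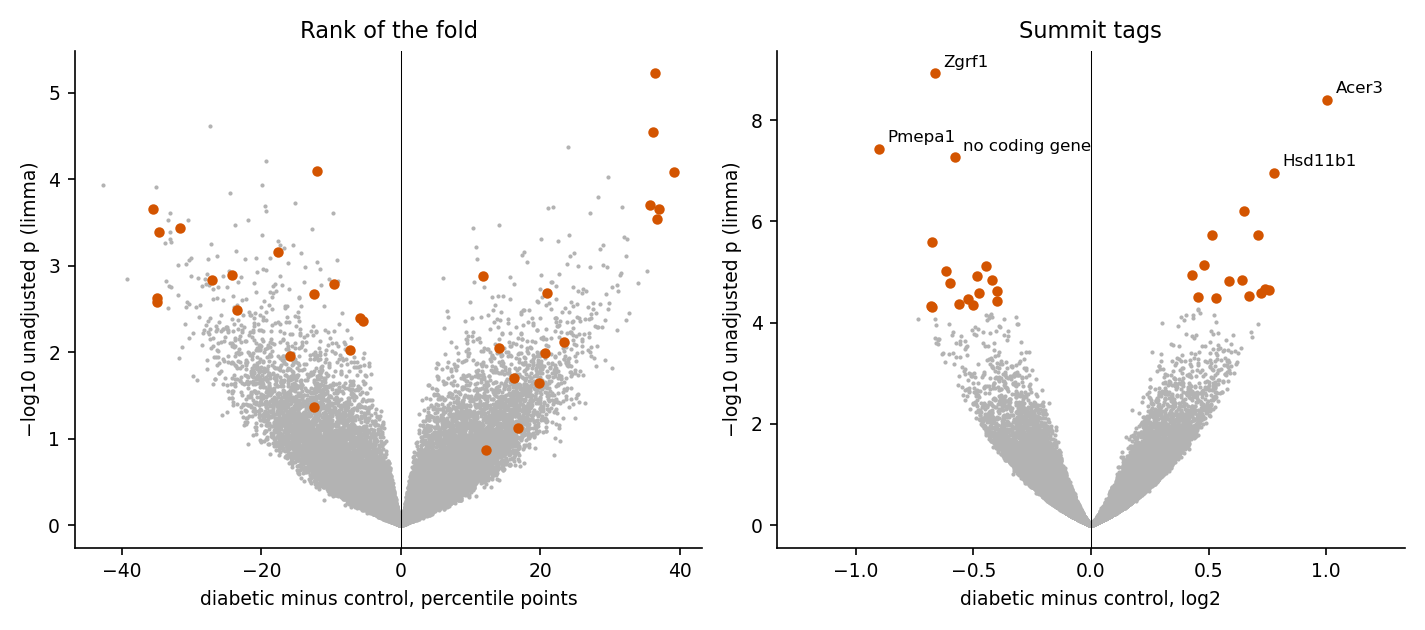
Each point is 1 of the 32196 regions with a peak in all 12 resting libraries, placed by its diabetic minus control difference (left, percentile points of the fold; right, log2 of centred summit tags) and the −log10 of its unadjusted limma p. Orange points in both panels are the 32 regions that passed by summit tags; the 5 with the smallest p are named in the right panel, and none passed by fold percentile.

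The promoter of Hsd11b1 gave more summit tags in diabetic macrophages. Hsd11b1 encodes 11β-hydroxysteroid dehydrogenase type 1, which turns inert 11-keto steroids back into active glucocorticoid inside the cell. The region (chromosome 1, 193242232 to 193242705) spans the start site and holds all of the upstream sequence printed above. It had 26, 35, 42, 35, 32 and 26 summit tags in diabetic replicates 1 to 6 and 26, 21, 12, 21, 16 and 20 in control replicates 1 to 6. The highest control library reached the lowest diabetic ones in raw tags, and the groups did not overlap once centred on the library medians. The difference was 1.72-fold (95% interval 1.42 to 2.07, limma adjusted p = 0.000697). By fold percentile the region stood at 83.0 ± 9.91 in diabetic and 46.0 ± 18.6 in control libraries (SD, n = 6 each). It was the only common region assigned to Hsd11b1.

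The widest difference was within Acer3, the gene of alkaline ceramidase 3, which splits ceramides into sphingosine and fatty acids (chromosome 7, 98313964 to 98314410). Diabetic libraries had 24, 19, 29, 22, 31 and 19 tags and control libraries 16, 9, 12, 12, 11 and 11. Every diabetic library was above every control library, by 2.00-fold (1.62 to 2.49, limma adjusted p = 6.31e-05). Acer3 had 4 other common regions, whose differences of 1.04-, 1.27-, 1.13- and 1.20-fold did not pass, including both regions at start sites of the gene.

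At Pmepa1, 2 of 3 common regions fell in diabetic macrophages. Pmepa1 encodes a membrane protein that is induced by TGF-β and dampens its signalling. The first region (chromosome 2, 173263601 to 173264021) had 18, 15, 12, 13, 12 and 9 tags in diabetic and 29, 18, 36, 20, 27 and 23 in control libraries. It was 1.87-fold lower in diabetic macrophages (limma adjusted p = 0.000393), and centred values did not overlap. The second (chromosome 2, 173276321 to 173276860) had 13, 25, 22, 20, 16 and 16 tags in diabetic and 33, 23, 46, 24, 31 and 27 in control libraries, 1.60-fold lower (limma adjusted p = 0.00899). Raw tags of diabetic replicate 2 exceeded those of control replicates 2 and 4, whereas centred values again did not overlap. This second region passed in 11 of the 12 fits that left out 1 library. The third, at 173229488 to 173230115, was 1.13-fold higher and did not pass (limma unadjusted p = 0.285).

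The smallest p of all belonged to a region within Zgrf1, which encodes a helicase of DNA repair (chromosome 3, 127586217 to 127586834). Diabetic libraries had 35, 29, 32, 39, 29 and 28 tags and control libraries 46, 48, 70, 44, 57 and 47. All control libraries were above all diabetic ones, and the region was 1.58-fold lower in diabetic macrophages (limma adjusted p = 3.82e-05). It ranked among the strongest peaks in both groups, with percentiles of 94.2 ± 3.71 in diabetic and 99.5 ± 0.523 in control libraries (SD, n = 6 each), a range in which the percentile can show little.

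The other 2 regions that passed in every such fit lay away from protein-coding genes. On chromosome 14 (104005123 to 104005785), within the lncRNA gene 4930432J09Rik, diabetic libraries had 33, 28, 32, 37, 29 and 33 tags and control libraries 55, 43, 53, 47, 43 and 51. The groups did not overlap and the region was 1.49-fold lower in diabetic macrophages (limma adjusted p = 0.000432). On chromosome 19 (5812026 to 5812471), 9577 bp from the abundant nuclear lncRNA gene Malat1 and 38725 bp from Frmd8, diabetic libraries had 32, 31, 26, 32, 22 and 20 tags. The control libraries had 18, 11, 21, 15, 18 and 17 there, so raw tags overlapped by 1 and centred tags did not. This region was 1.64-fold higher in diabetic macrophages (limma adjusted p = 0.00733).

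**Figure D3:**
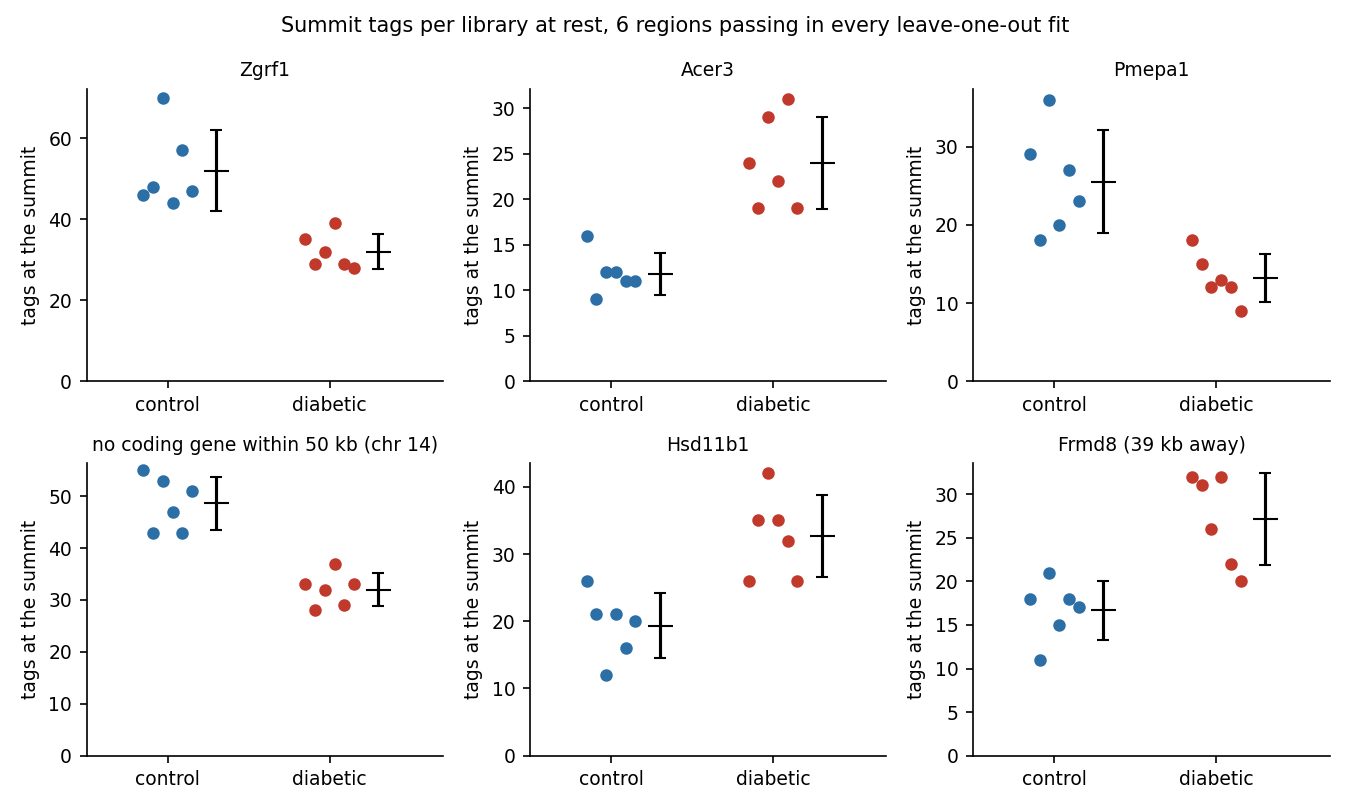
Summit tags (vertical axis, from 0) in each of the 6 control (blue) and 6 diabetic (red) resting libraries at the 6 regions that passed in every fit leaving out 1 library; the black mark and bar are the mean and SD of the group. Acer3, Hsd11b1 and the region 38725 bp from Frmd8 lie higher, and Zgrf1, Pmepa1 and the chromosome 14 region lower, in diabetic libraries; values are raw tags, and the test used values centred on each library's median.

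Of the other 6 regions at start sites, 5 rose and 1 fell. P2ry13 encodes a receptor for ADP of the purinergic family, and its region (chromosome 3, 59210690 to 59211059) covers part of the sequence printed above. It had 30, 23, 28, 26, 25 and 21 tags in diabetic and 18, 18, 17, 16, 13 and 16 in control libraries, without overlap (1.56-fold, limma adjusted p = 0.0278). The RUNX letters of P2ry13 lie upstream of this region's end, at 59211083 to 59211104 with their flanks. Tmem87b, a gene of a Golgi membrane protein, had 40, 45, 42, 37, 46 and 36 tags in diabetic and 41, 27, 35, 23, 34 and 24 in control libraries, where raw tags overlapped through control replicate 1 (1.37-fold, limma adjusted p = 0.0397). Start sites of Nploc4, a cofactor of the p97 segregase (1.65-fold), Csnk1g2, a casein kinase 1 (1.43-fold), and Cltc, the clathrin heavy chain (1.35-fold), also rose, with limma adjusted p of 0.0367, 0.00733 and 0.0278. At Csnk1g2 and Cltc, control replicate 1 stood with the diabetic libraries in raw tags, at 52 and 61 against 26 to 34 and 32 to 41 in the other control libraries. At Ccdc30 the start-site region fell, with 31, 47, 33, 40, 39 and 30 tags in diabetic and 55, 50, 56, 42, 56 and 44 in control libraries (1.36-fold lower, limma adjusted p = 0.0223).

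The remaining regions that rose lay in gene bodies or within 50 kb of one. Sla, the gene of an adaptor that restrains Src-family kinase signalling (a position it shares with the thyroglobulin gene Tg), had 41, 35, 49, 38, 46 and 26 tags in diabetic and 37, 26, 17, 18, 25 and 30 in control libraries (1.57-fold, limma adjusted p = 0.00339), and the groups overlapped. Map3k5, which encodes the stress kinase ASK1, rose 1.45-fold, from 22.5 ± 2.26 to 32.7 ± 6.19 tags (SD, n = 6 each; limma adjusted p = 0.0397). Clic4 rose 1.69-fold, and its 12 to 17 diabetic tags were all above its 7 to 11 control tags (limma adjusted p = 0.036). Myo5a, a myosin that carries vesicles, rose 1.67-fold, Abhd3, a phospholipase gene, 1.59-fold, a region 37319 bp from the vinculin gene Vcl 1.50-fold, and a region 38935 bp from Ptma 1.40-fold. These 4 had limma adjusted p between 0.0223 and 0.0397.

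The other regions that fell lay in or near 10 genes or away from any. Adck1, a gene of a mitochondrial kinase-like protein, had 17, 18, 26, 17, 17 and 18 tags in diabetic and 30, 30, 31, 28, 26 and 28 in control libraries (1.51-fold lower, limma adjusted p = 0.0293). Regions near Gtpbp4 (1.53-fold lower, 31283 bp away), Mex3b (1.34-fold lower, 23065 bp away), Aga (1.60-fold lower, 15310 bp away) and 1700057G04Rik (1.32-fold lower, 17253 bp away) also fell. So did regions within Zfp35 (1.40-fold lower), Tbck (1.39-fold lower), Slc10a7 (1.48-fold lower), Atf7ip (1.41-fold lower) and Ralgps2 (1.60-fold lower), and 2 regions with no protein-coding gene within 50 kb, on chromosome 10 (91300024 to 91300621, 1.32-fold lower) and chromosome 3 (81782639 to 81783646, 1.44-fold lower). No gene other than Pmepa1 had more than 1 of the 32 regions.

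After stimulation none of these differences passed where it could be tested. Of the 32 regions, 22 had a peak in all 12 libraries exposed to LPS and IFNγ, and 13 of the 22 had the same direction there. An unadjusted p under 0.05 was found for 3, at Zgrf1, the second Pmepa1 region and Abhd3, and none passed (by summit tags 0% of 25221 regions passed and 5.5% had an unadjusted p under 0.05). The difference between the states did not pass for any of the 22, with 0% of 22770 regions passing by summit tags and 7.15% at an unadjusted p under 0.05, so the effects are not shown to differ between states. Fold percentiles also gave 0% after stimulation, with 6.46% at an unadjusted p under 0.05, and 0% for the difference between states, with 6.74%. The fits for the difference between states took all 24 libraries as independent, although the stimulated cells were the other portion of each sample. A fit paired by replicate number, a link the labels do not state, also gave 0 by fold percentile. Summit tags were not fitted with this pairing. The region at Hsd11b1 had a peak in 6 of 6 diabetic and 4 of 6 control stimulated libraries, and the Acer3 region in 4 and 2. The first Pmepa1 region had one in 5 and 4, and the region 38725 bp from Frmd8 in 5 and 2. These regions, all among those that passed in every fit leaving out 1 library, were thus not tested after stimulation.

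Start-site regions as a class stood slightly higher in the diabetic libraries. Their median difference was 1.02 points, against -0.326 in gene bodies, -0.141 within 50 kb of a gene and -0.634 beyond. At an unadjusted p under 0.05, 283 of 7739 start-site regions were higher and 118 lower in diabetic macrophages, which is 5.18% in all, and 444 of 13443 gene body regions were higher and 611 lower, 7.85% in all. Over all regions the share was 7.1%, with 3.37% higher and 3.73% lower. One value per library did not separate the groups. The median percentile of start-site regions was 63.5, 64.5, 64.6, 64.3, 67.4 and 68.2 in diabetic replicates 1 to 6 and 62.2, 66.3, 61.8, 64.4, 64.7 and 62.0 in control replicates 1 to 6 (65.4 ± 1.92 and 63.6 ± 1.84 (SD, n = 6 each), exact permutation p = 0.139). The 3 highest values came from the 3 libraries with the fewest peaks, which are diabetic replicates 5 and 6 and control replicate 2. With every resting list cut to its 49837 strongest peaks, the difference of the means was 1.89 points (exact permutation p = 0.149, n = 6 each), against 1.85 points with the full lists.

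Regions of the stimulated state were also looked for in resting cells. There were 754 regions with a peak in all 12 stimulated libraries and in at most 6 of the resting ones. At rest, 132 ± 58.8 of them had a peak in diabetic and 173 ± 60.3 in control libraries (SD, n = 6 each; exact permutation p = 0.251). With every list cut to at most its 49837 strongest peaks the set held 904 regions. Stimulated lists of control replicates 1 to 5 and diabetic replicate 5 were shorter and kept whole, the shortest with 41385 peaks in control replicate 3. The set was therefore not drawn from stimulated lists of equal length. Resting counts were 152, 180, 173, 167, 140 and 168 in the diabetic and 207, 161, 227, 199, 176 and 211 in the control libraries. Means were 163 ± 14.7 and 197 ± 24.2 (SD, n = 6 each), with an exact permutation p of 0.0238 that did not pass after adjustment over 7 added values (adjusted p = 0.167). The groups overlapped through control replicates 2 and 5. The mean of the diabetic libraries was below that of the control libraries under both counts.

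No region near a gene of the inflammatory, metabolic or chromatin lists passed, by either measure. For comparison, over all 32196 regions 3.37% were higher and 3.73% lower by fold percentile at an unadjusted p under 0.05, with a median difference of 0.0787 points, and 6.05% and 5.3% by summit tags. Inflammatory cytokine and chemokine genes had 53 common regions, 1 higher and 1 lower by this unadjusted measure and a median of 1.25 points. In this and the following lists, counts of higher and lower regions are by fold percentile at that unadjusted p unless summit tags are named, and by summit tags 5 were higher and 2 lower here. The most uneven lay 2210 bp from Cxcl3, a neutrophil chemoattractant, with 41.6 ± 18.4 against 18.4 ± 7.48 percentile points (SD, n = 6 each; limma unadjusted p = 0.00895). Interferon response genes had 45 regions, 1 higher and 2 lower, with a median of -0.686, and by summit tags 1 higher and 1 lower. Near Gbp5, a guanylate-binding protein gene 18410 bp away, a region had 24, 26, 25, 33, 25 and 21 tags in diabetic and 17, 17, 21, 18, 21 and 21 in control libraries (limma adjusted p = 0.397 by percentile and 0.171 by tags).

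The lists of inflammatory control likewise held no region that passed. NF-κB genes and their brakes had 82 regions (3 higher, 4 lower, median -0.39), with the leading one 34784 bp from Nfkbiz (10.9 ± 5.31 against 32.7 ± 15.8 percentile points (SD, n = 6 each), limma adjusted p = 0.522). Inflammasome genes had 45 (2 higher, 1 lower, median -1.78), led by a region within Nlrc4 with 10, 11, 18, 13, 13 and 7 tags in diabetic and 19, 15, 24, 18, 15 and 12 in control libraries (limma adjusted p = 0.59). AP-1 and BATF genes had 49 (2 higher, 0 lower, median -0.0502), led by Batf at 17.8 points (limma adjusted p = 0.642). Receptors of glycated ligands and alarmin genes had 37 (0 higher, 1 lower, median 0.469), where a region 48287 bp from Tlr4 was 27.5 points down on the control mean (29.8 ± 11.5 against 57.3 ± 17.6 (SD, n = 6 each), limma adjusted p = 0.548). By summit tags, 3 were higher and 3 lower for NF-κB genes, 2 and 4 for inflammasome genes, 5 and 2 for AP-1 and BATF genes, and 1 and 2 for glycated ligand receptors and alarmins.

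Among metabolic genes the counts were as follows. Glucose uptake and glycolysis genes had 81 regions (0 higher, 3 lower, median -0.461), insulin and PI3K signalling genes 107 (4 higher, 2 lower, median 0.656), lipid uptake and cholesterol genes 99 (4 higher, 4 lower, median 0.163) and genes of oxidative stress and mitochondria 70 (0 higher, 0 lower, median 0.725). By summit tags the counts were 5 higher and 5 lower for glucose uptake and glycolysis, 8 and 2 for insulin and PI3K signalling, 9 and 4 for lipid uptake and cholesterol, and 6 and 2 for oxidative stress and mitochondria. A region within Slc2a1, the gene of the glucose transporter GLUT1, stood at 8.02 ± 7.45 points in diabetic and 17.6 ± 5.99 in control libraries (SD, n = 6 each; limma adjusted p = 0.665). Tsc2, a brake on mTORC1, stood at 43.3 ± 14.5 and 18 ± 8.87 (SD, n = 6 each; limma adjusted p = 0.501) in a region it shares with the start of Nthl1. At Lpl, which encodes lipoprotein lipase, a region 7761 bp away had 26, 27, 20, 23, 24 and 14 tags in diabetic and 18, 12, 20, 15, 13 and 14 in control libraries, 1.45-fold higher and short of the threshold (limma adjusted p = 0.109). For oxidative stress, the leading region lay 25937 bp from Txnrd1 at 4.34 points (limma adjusted p = 0.712).

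Lists of cell state held no region that passed. Trained immunity and chromatin modifier genes had 86 regions (4 higher, 4 lower, median 0.947), and by summit tags 11 were higher and 2 lower at an unadjusted p under 0.05 while none passed (6.05% higher and 5.3% lower over all regions). Their leading region lay 48143 bp from Runx1, which encodes a factor of blood cell development, with 14, 15, 19, 14, 19 and 15 tags in diabetic and 9, 14, 15, 8, 10 and 10 in control libraries (1.48-fold, limma adjusted p = 0.144). Alternative activation genes had 69 regions (4 higher, 2 lower, median 1.86), led by a region within the mannose receptor gene Mrc1 at 44.9 ± 17.8 against 17.1 ± 14.1 points (SD, n = 6 each; limma adjusted p = 0.546). Cell cycle genes had 37 (1 higher, 2 lower, median 1.1), led by a region within Ccnd3, the gene of cyclin D3, at 9.74 points (limma adjusted p = 0.648). By summit tags, alternative activation genes had 6 higher and 2 lower, and cell cycle genes 3 and 1. Macrophage identity genes had 74 (4 higher, 2 lower, median 0.00647), and by summit tags 8 were higher and 0 lower.

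Irf8, a lineage factor of macrophages, held 3 of those 8 regions. At its start site (chromosome 8, 120735751 to 120736782), diabetic libraries had 27, 39, 37, 27, 28 and 33 tags and control libraries 22, 18, 30, 16, 31 and 24. The groups overlapped, and the 1.39-fold difference did not pass (95% interval 1.17 to 1.65, limma adjusted p = 0.0849). The marker lists of other cells had few regions, and none passed. By summit tags at an unadjusted p under 0.05, 1 region was higher for neutrophils, 1 for B cells, 1 for erythroid and megakaryocytic cells, 1 for stromal and endothelial cells and 2 for dendritic cells, and none was lower in any of the 7 marker lists. Neutrophil genes had 11 (median 4.39 points, led by Mmp9), T and NK cell genes 14 (2.37, Klrb1c), B cell genes 4 (-6.5, Blnk), erythroid and megakaryocytic genes 5 (4.57), stromal and endothelial genes 12 (0.516, Tek), dendritic cell genes 21 (-0.991, Zbtb46) and mast cell and basophil genes 2 (-9.77, Kit). Blnk, an adaptor of B cell receptor signalling, came nearest to the threshold, with 30 to 46 tags in diabetic and 25 to 38 in control libraries (1.35-fold, limma adjusted p = 0.0556).

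**Figure D4:**
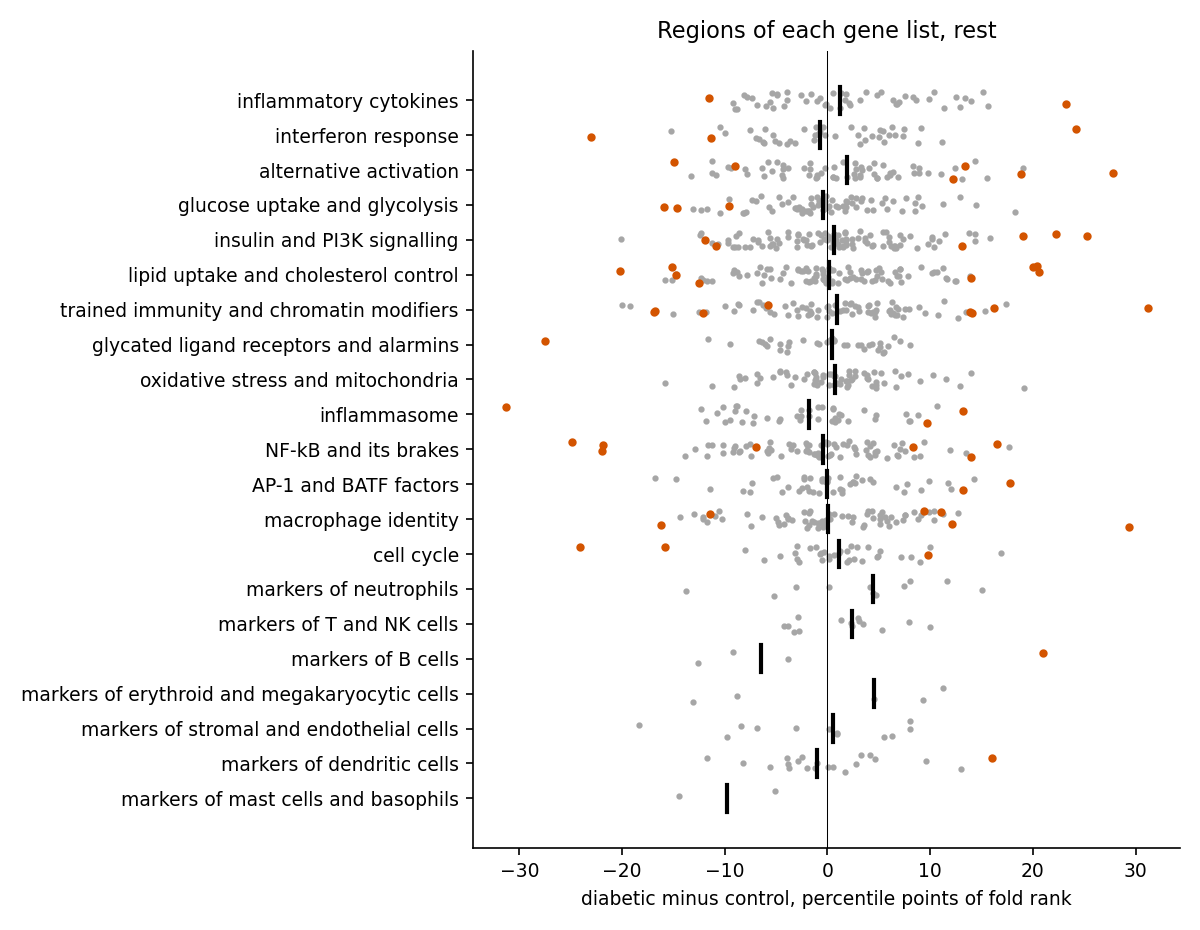
Each point is 1 region with a peak in all 12 resting libraries, assigned to its nearest gene and placed by the diabetic minus control difference of its fold percentile; orange points have an unadjusted limma p under 0.05 and black bars are medians. Medians of the 14 lists of macrophage function lie between -1.78 and 1.86 points, and no region of any list passed after adjustment.

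A set of 30 genes of diabetes and macrophage biology was read at the ends of the gene, whatever the values. A region with a peak in all 12 libraries was found there for 20 of them, and none differed by fold percentile at an unadjusted p under 0.05. At the Runx1 start site, diabetic libraries had 22, 29, 22, 21, 21 and 21 tags and control libraries 26, 20, 25, 20, 20 and 25, a ratio of 1.01 (95% interval 0.845 to 1.21). At the start of Slc2a1 they had 43, 43, 39, 38, 34 and 36 against 39, 45, 38, 32, 38 and 37, a ratio of 1.03 (0.899 to 1.18). Setdb2, which encodes a histone methyltransferase and shares its start region with Cab39l, had a ratio of 0.976 (0.883 to 1.08), and Setd7, another methyltransferase, 1.03 (0.849 to 1.25).

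Glycolytic regulators gave 1.03 (0.929 to 1.15) for the hexokinase gene Hk2 and 0.959 (0.847 to 1.09) for Pfkfb3. Txnip, a thioredoxin-binding protein whose gene responds to glucose, had 40, 47, 50, 33, 45 and 31 tags in diabetic and 50, 36, 44, 34, 59 and 47 in control libraries, a ratio of 0.926 (0.810 to 1.06). Insulin signalling genes gave 0.947 (0.805 to 1.12) for the receptor Insr and 1.10 (0.967 to 1.26) for the adaptor Irs2, and the cholesterol exporter gene Abca1 gave 1.09 (0.961 to 1.24). Among inflammatory genes, an end region of Tnf that overlaps no annotated start site had 26, 31, 45, 30, 35 and 28 tags in diabetic libraries. Control libraries had 42, 28, 27, 18, 26 and 26 there, a ratio of 1.20 (1.01 to 1.41, limma adjusted p = 0.396). The other common Tnf region (chromosome 17, 35201559 to 35202732) had a log2 tag difference of 0.0769 (limma unadjusted p = 0.617). The ratio was 1.10 (0.900 to 1.35) at Il6, 1.09 (0.933 to 1.27) at Nlrp3, 0.918 (0.827 to 1.02) at Tlr4, 1.13 (0.970 to 1.32) at Tlr2 and 1.17 (0.947 to 1.44) at S100a8. Kdm6b, a histone demethylase gene, gave 1.16 (0.992 to 1.35), Hif1a 0.868 (0.718 to 1.05) and Spi1, which encodes PU.1, 0.907 (0.773 to 1.06).

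The other genes of the set had no such region. At gene ends, Il1b had a peak in 1 diabetic and 0 control libraries, S100a9 in 1 and 1, Nos2 in 2 and 2, Mrc1 in 5 and 5, Arg1 in 5 and 5, and the strongest end region of Csf1r in 5 and 6. Runx2, Runx3, Cd36 and Ager had no region there. Over all common regions, the 95% interval of the tag ratio lay within a 1.5-fold change in either direction for 91.0% and within a 2-fold change for 99.97%.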

How the data were processed

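ATAC-seq peak lists of 12 resting libraries were used, with 12 stimulated ones for comparison. The submitters' processing notes name MACS2 2.1.1 and Bowtie2 2.2.6, with mm10, beside Trim Galore, FastQC, DiffBind and edgeR; settings and any Tn5 shift of reads are not given in the sources. The authors deposited 1 list per library with a score, a fold ratio, and −log10 p-values and −log10 q-values, ending at a q-value of about 0.0499. No source used here gives read totals.

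Peaks were merged at 1 bp of overlap, in at least 2 libraries. Percentiles of the fold were tested with limma 3.58.1 (trend) in R 4.3.3, presence with Fisher's exact test and library values with two-sided exact permutation tests, with Benjamini-Hochberg adjustment at 0.05; scripts were tested on simulated data. Summit tags were added after seeing the data; whole numbers were found, to within 0.003 of the −log10 p-value, for at least 99.998% of peaks in each resting library, with at most 3.33% having more than 1 solution. Genes came from RefSeq GRCm38.p6, nearest protein-coding body within 50 kb; nearest genes need not be targets.

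Named regions were the 10 leading each way by fold percentile, 5 each way by presence, 1 per list, 30 fixed genes, and all 32 passing by tags. Members and lists were chosen with earlier results of these data known. The values of 2 named genes are not reported here.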

Additional observations from a re-analysis of the deposited data

Results flagged for a closer look

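Summit tags of the leading regions were searched for 1 library far from the other 5 of its group, by Dixon's test at its 95% critical value for 6 samples (0.625). Over 104 groups of 6 values, 7 had such a library, and chance gives about 1 in 20. The promoter regions of Csnk1g2 and Cltc were set apart by control replicate 1, with 52 tags where the next control library had 34, and 61 where the next had 41. Ralgps2 was flagged through the same library, with 29 tags against 22 in the next. Control replicate 3 had 27 tags at Chrm3 against 23, and control replicate 4 had 8 tags at Arhgap31, where the next lowest had 12. Among diabetic libraries, replicate 3 had 26 tags at Adck1, where the next had 18, and replicate 1 had 11 tags at Armc3, where the next lowest had 15. All of these are raw tags, not centred on the library medians as in the test. Control replicate 1 also had the most peaks of the control libraries, 60610, and the highest median of summit tags of the 12 libraries, 27. Whether this bears on its 3 regions was not tested.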

How the results depend on the processing

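By fold percentile, no alternative gave more than 1 region except the change to summit tags, which gave 32. One alternative was an exact permutation test per region, which gave 0. Its smallest reachable p of 0.00216 cannot pass adjustment for a small number of regions, so that 0 decides nothing. A fit of all 24 libraries gave 1 and so did the fit without diabetic replicate 2; leaving out single libraries gave 0 to 1. Presence gave 0 throughout, but even fully split regions, which give the smallest p, could not have passed in the small numbers found. These counts of 0 are therefore no sign of stability. The 32 calls by summit tags became 51 with the number of peaks as a covariate, 4 with percentile ranks of the tags and 0 in a fit of all 24 libraries, and ranged from 10 to 69 without single libraries. With a −log10 q of at least 5 they were 43, including all 24 of the 32 that could be measured. Replicate numbers did not pair the libraries (same-number correlations of -0.0419 to 0.0376; replicate 5 alone matched its own number best). With the replicate block, fold percentile gave 0 regions and summit tags 30, of which 29 were shared, and presence gave 0; the block left the mean differences of the values per library as they were and changed no other call.

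With lists of equal length, diabetic minus control covered length turned to 0.0651 Mb and the share of peaks in common regions to -0.0408 percentage points. Without single libraries, peak number differed by -1736 to 668.9, covered length by -0.638 to 0.485 Mb, median width by 0.433 to 3.43 bp, the share at gene ends by -0.0855 to 0.579 points, median fold by -0.300 to -0.0398 and the share in common regions by -0.825 to 2.01 points; none passed. No named region turned direction. Summit tags had medians of 20 to 27 per library, which limits what single libraries can show.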

Other observations

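Beyond the named genes, 9 genes had at least 3 common regions with an unadjusted p under 0.05 by fold percentile in the same direction. None of their regions passed, and they were picked after their values were seen. Over all common regions, 3.37% were higher and 3.73% lower at this p. How many genes would reach 3 regions at these shares was not tested. Snx10, which encodes a sorting nexin of endosomes, had 3 of 6 regions higher in diabetic macrophages and 0 lower, with a median difference of 19.4 points. Fnip2, a partner of folliculin in nutrient sensing, had 3 of 8 regions lower and 0 higher (median -5.33), and Map2 had 3 of 4 lower and 1 higher (median -17.7). For Arhgap24 the counts were 0 higher and 3 lower of 23, for Chst11 0 and 3 of 12, for Fggy 0 and 3 of 12, for Frmd4b 0 and 3 of 11, for Pip4k2a 1 and 3 of 16, and for Asap1 3 and 2 of 18. Neighbouring regions of 1 gene share their libraries and are not independent.

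By chromosome, the median difference in summit tags ran from -0.04 (log2) on chromosome X to 0.08 on chromosome 11, leaving out the Y chromosome with its 3 regions.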
